A study of Rattus norvegicus with 25 samples.

Results

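Marker genes of GABA interneurons were followed in bulk RNA from 2 brain regions of adult male rats, the basolateral amygdala (BLA) and the dentate gyrus (DG). The members were 10 genes taken by name, Gad1, Gad2, Slc32a1, Pvalb, Sst, Vip, Calb2, Reln, Lhx6 and Cort, and 9 of them were matched in both region tables, each to 1 of 26312 gene identifiers. Cort was not analysed here. All animals were wild-type Sprague-Dawley males whose brains were frozen at day 9. The stress groups had spent 3 h immobilized with predator scent, while controls stayed minimally disturbed in their home cages, and all went through the same behavioral tests. Animals were picked for sequencing by a composite score of anxiety-like behavior, from 0 to 2 in the stress-low group, from 13 to 15 in the stress-high group and from 0 to 6 in the controls. Tissue came as 0.75 mm punches of the left hemisphere from 200 µm sections, and each library stood for 1 animal and 1 region. There were 13 BLA libraries (7 control, 3 stress-low, 3 stress-high) and 12 DG libraries (6 control, 3 stress-low, 3 stress-high).

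Total expected counts, the read counts that RSEM assigns to genes, ran from 12709493 to 22801247 in BLA and from 11656439 to 19477932 in DG. A single control library per region stood apart on the first principal component, animal 2 in BLA and animal 35 in DG. The study likewise left out 1 control library per region that stood apart, and these libraries are left out below unless a value is given for every library, which leaves 12 BLA and 11 DG libraries. The BLA library of control animal 35 carried labels that disagree, control in its library name and stress in its treatment field, and was taken as control. All stress-high animals had numbers up to 20 and all stress-low animals numbers above 20, so any effect of animal number and the difference between the stress groups cannot be told apart. Of 5 tested granule cell genes, 4 were higher in DG than in BLA at an adjusted p under 0.05, among them Prox1 (27.1-fold) and C1ql2 (117-fold). The other, Calb1, was 1.46-fold higher in BLA.

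Gad1 and Gad2 encode the enzymes that make GABA from glutamate, and Slc32a1 encodes the vesicular transporter that loads GABA into synaptic vesicles, so these 3 genes mark GABA neurons of every class. The other members divide the interneurons into classes. Parvalbumin (Pvalb), a calcium buffer, marks fast-spiking cells that contact the soma, the neuropeptide somatostatin (Sst) marks dendrite-targeting cells, and vasoactive intestinal peptide (Vip) marks cells that mostly inhibit other interneurons. Calb2 encodes calretinin, found in part of the Vip cells, in immature granule cells and, in some rodent species but not all, in hilar mossy cells. Reln encodes the secreted glycoprotein reelin, made by neurogliaform-type interneurons, and Lhx6 is the transcription factor of Pvalb and Sst cells born in the medial ganglionic eminence. In the amygdala, GABA neurons of striatal type fill the adjoining central nucleus and the intercalated cell masses.

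The promoter windows of 3 members are shown, Gad1 and Slc32a1 because their levels moved together in BLA and Sst because it was the most abundant member in both regions. Each window holds 250 bases before and 50 after the RefSeq start in GRCr8 and reads 5′ to 3′ on the plus strand. Capitals mark motif matches, searched on both strands and not overlapping each other. The GC box was searched as GGGCGG, which reads CCGCCC on the other strand. The TATA motif was searched as TATAAA. The cyclic AMP response element was searched as TGACGTCA. The homeodomain core was searched as TAATTA.
Gad1, chr3:75777202-75777501: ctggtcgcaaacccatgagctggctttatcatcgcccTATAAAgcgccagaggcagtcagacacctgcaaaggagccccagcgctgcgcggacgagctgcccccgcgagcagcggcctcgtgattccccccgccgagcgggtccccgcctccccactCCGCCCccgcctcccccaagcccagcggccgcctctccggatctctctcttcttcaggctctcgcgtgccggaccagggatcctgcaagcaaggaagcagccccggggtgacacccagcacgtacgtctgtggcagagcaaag
Slc32a1, chr3:167686995-167687294: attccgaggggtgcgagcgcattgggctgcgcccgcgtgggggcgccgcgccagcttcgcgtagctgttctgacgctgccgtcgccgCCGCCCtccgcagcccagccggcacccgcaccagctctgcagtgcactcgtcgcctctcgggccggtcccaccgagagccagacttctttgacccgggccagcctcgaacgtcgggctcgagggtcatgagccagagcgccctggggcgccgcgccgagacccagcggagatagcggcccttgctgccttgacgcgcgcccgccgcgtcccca
Sst, chr11:90461296-90461595: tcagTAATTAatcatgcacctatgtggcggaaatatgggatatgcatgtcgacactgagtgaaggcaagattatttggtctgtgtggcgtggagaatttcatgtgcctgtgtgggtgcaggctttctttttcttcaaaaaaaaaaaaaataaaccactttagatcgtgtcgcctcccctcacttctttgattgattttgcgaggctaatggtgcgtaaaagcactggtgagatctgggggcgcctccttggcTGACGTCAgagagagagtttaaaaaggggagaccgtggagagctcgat
Gad1 and Slc32a1 shared a match to GGGCGG, a motif that 33.1% of 33469 rat promoter windows hold, and both windows were rich in G and C, at 67.7% and 73.7% against a median of 51.7% over all windows. The Sst window, at 45.7%, held TGACGTCA, found in 1.83% of all windows, and TAATTA, found in 5.36%. Counted from the RefSeq start, the TATAAA match of Gad1 began at -213 and the TGACGTCA match of Sst at 2. Matches were made on letters alone, and their function was not tested. Of the 9 named genes with a window, Cort among them, 5 held GGGCGG, 2 held TATAAA, and TGACGTCA and TAATTA occurred in the Sst window alone.

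Somatostatin was the most abundant member in both regions, in TPM, a level scaled to library depth and transcript length that allows genes to be compared. In BLA the mean levels were 446 ± 62.8 TPM for Sst (SD, n = 12), 176 ± 33.9 for Gad1, 120 ± 32.7 for Calb2, 115 ± 31.2 for Gad2, 68.4 ± 17.8 for Slc32a1, 35.0 ± 5.22 for Pvalb, 24 ± 3.37 for Vip, 12.3 ± 2.79 for Reln and 5.55 ± 1.71 for Lhx6. Neighbors in this order were separated in 11 or 12 of the 12 libraries, except Calb2 and Gad2, where Calb2 was the higher in 6 of 12. In DG the order was Sst, Gad1, Gad2, Slc32a1, Pvalb, Reln, Calb2, Lhx6 and Vip, from 336 ± 65.3 TPM (SD, n = 11) down to 4.48 ± 0.873 TPM. Neighbors were separated in all 11 DG libraries apart from the lowest pair, where Lhx6 lay above Vip in 8 of 11. Lhx6 rested on 37 to 123 counts per library in BLA and 33 to 67 in DG, and Vip on 32 to 79 in DG, so these 2 genes carry the most counting error. The other members reached at least 88 counts in every library used. In tissue punches, fewer cells of a type and less RNA per cell cannot be told apart.

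**Figure D1:**
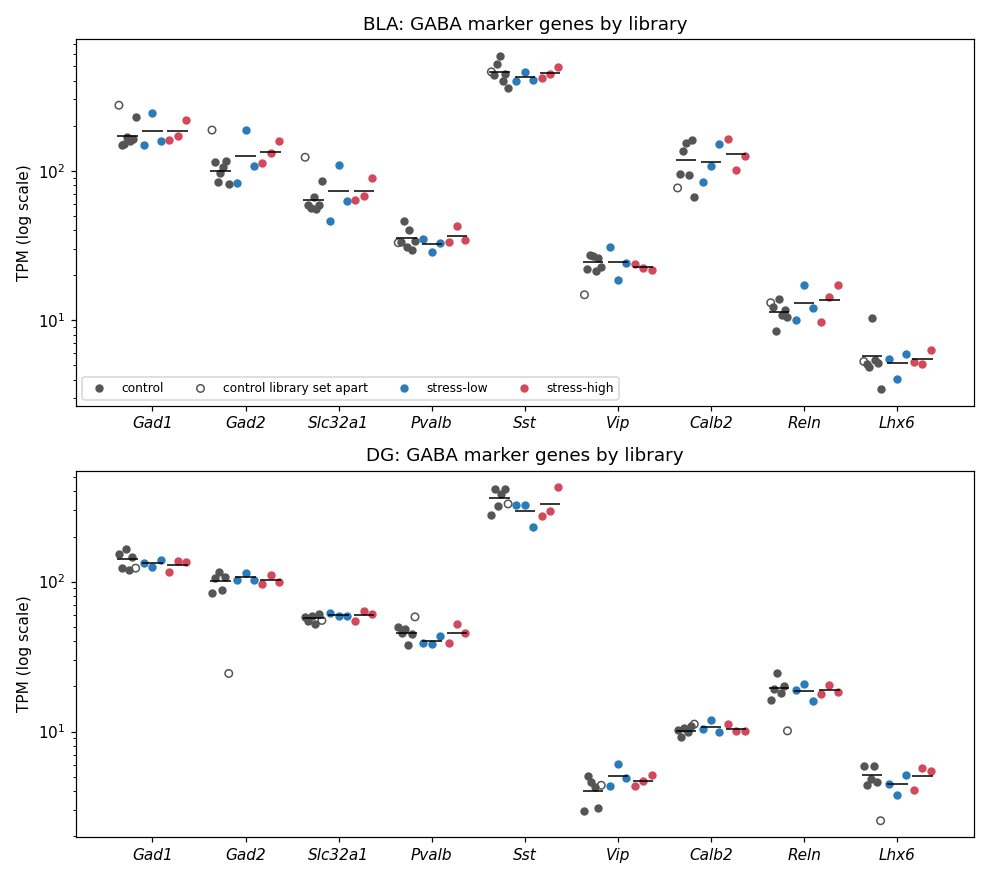
TPM of each member (log axis) in each BLA (upper) and DG (lower) library, by group, with a bar at the mean of the libraries used and an open circle for the control library set apart in each region. Groups overlap for every member, and the open circle in DG lies far below the other libraries for Gad2.

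The first question was whether the GABA markers differed between groups in BLA, and no member passed the test. With edgeR's quasi-likelihood test and Benjamini-Hochberg adjustment over 15230 genes, 0 of 9 members were called in stress-high against stress-low, in stress-low against control and in stress-high against control. The background was also empty, with 0% of all genes called in each comparison (percent called: 0). The study used another method, EBSeq, and reported limited numbers of differing genes in each region at a false discovery rate under 0.05. The empty background therefore holds for this edgeR fit and does not mean that no gene differs. At an unadjusted p under 0.05, 0 of 9 members passed in stress-high against stress-low (background 1.98% of genes), 0 of 9 in stress-low against control (2.75%) and 1 of 9 in stress-high against control (2.57%). DESeq2 called none of the members either, and at most 2 genes of any kind in a BLA comparison. That single member was Gad2, whose enzyme is held at axon terminals. Gad2 stood at 113, 131 and 158 TPM in the stress-high animals 7, 19 and 20. In the controls Gad2 ran from 81.9 to 116 TPM with a median near 101. The groups overlapped by 1 stress-high animal, at 113 TPM, which lay below the 2 highest controls. The log2 fold change was 0.41 ± 0.17 (SE), with an adjusted p of 1 in edgeR, and the exact two-sided permutation test of mean TPM gave p = 0.0714, where 3 against 6 libraries can reach 0.0119. In stress-high against control, no member had an unadjusted p under 0.05 without any one of the animals 17, 19, 20, 27 and 35. The same held with control animal 2 kept in. In the stress-low group Gad2 was 82.9, 186 and 107 TPM, so its 3 animals spanned nearly the whole range of the libraries used. With control animal 2, at 187 TPM, kept in, the controls reached the top of that range as well.

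The other pan-GABA genes gave smaller differences with wide errors. Gad1 was 161, 170 and 219 TPM in stress-high, 148, 245 and 158 in stress-low, and 149 to 228 in the controls. Its log2 difference from control was 0.10 ± 0.14 in stress-high and 0.07 ± 0.14 in stress-low. Slc32a1 was 63.7, 68.0 and 89.0 TPM in stress-high, 46.0, 110 and 62.5 in stress-low, and 55.5 to 84.8 in the controls. In both genes the spread within the stress-low group, set by animals 22 and 30, exceeded every difference between group means. Among the class markers, the log2 difference between stress-high and stress-low ran from -0.07 for Vip to 0.23 for Pvalb. SEs were 0.12 to 0.30 over the 9 members. The study, which tested genes with EBSeq, describes Sst as upregulated in the BLA of vulnerable males. Here Sst was 451 ± 39.4 TPM in stress-high and 421 ± 33.3 TPM in stress-low (SD, n = 3 each). Its log2 difference was 0.14 ± 0.12 (SE), with an unadjusted p of 0.273 in edgeR, and under 0.05 with only those 2 groups fitted. In stress-low against control, Sst passed that level with replicate numbers as a block and without animal 35. The log2 difference of Reln between stress-high and control was 0.27 ± 0.15, with an adjusted p of 1 in edgeR. Over the 9 members, the median log2 fold change was 0.135 in stress-high against stress-low, -0.029 in stress-low against control and 0.103 in stress-high against control, beside -0.001, -0.002 and -0.004 over all genes.

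In DG no member passed in any of the 3 comparisons over 14080 genes (percent called: 0 in each), with adjusted p-values of 1 in both comparisons of stress-high and between 0.740 and 0.909 in stress-low against control in edgeR. The background at an unadjusted p under 0.05 was 3.12% of genes in stress-high against stress-low, 6.9% in stress-low against control and 2.19% in stress-high against control, and 0 of 9 members passed at that level in each. DESeq2 called 1 to 3 genes per DG comparison and none of the members. Vip and Sst had the widest DG differences. Vip was 4.35, 6.04 and 4.86 TPM in the stress-low animals 22, 33 and 34, and 2.96 to 5.05 TPM in the controls, a log2 difference of 0.34 ± 0.21. Sst was 327, 327 and 233 TPM in the same stress-low animals and 278 to 416 TPM in the controls, a log2 difference of -0.30 ± 0.17. Both ranges overlapped, and the exact two-sided permutation p was 0.214 for each gene, where 3 against 5 libraries can reach 0.0179. Slc32a1 was the steadiest member, between 52.0 and 63.7 TPM in every DG library used. A test of whether the group differences themselves differed between BLA and DG passed for 0 of 27 member comparisons (lowest unadjusted p 0.116). Over all 15453 genes of that test, 0 passed at the adjusted threshold in each comparison.

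**Figure D2:**
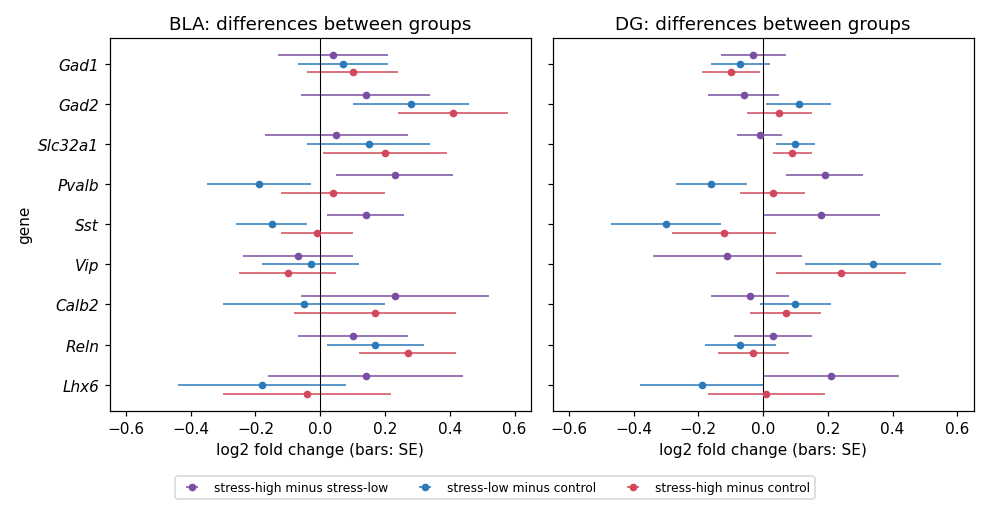
Log2 fold change of each member in the 3 pairwise group comparisons in BLA (left) and DG (right), with points for the edgeR estimate and bars for 1 SE. Values lie between -0.30 and 0.41, and none passed the adjusted threshold.

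Other genes of interneurons also gave no call at the adjusted threshold. Of 32 further interneuron genes, 30 were tested in BLA and 29 in DG, and 0 passed in any comparison. Those with an unadjusted p under 0.05 are given by their values. Tac1, the precursor of substance P, had log2 fold changes in BLA of 0.64 ± 0.14 in stress-high against control and 0.34 ± 0.14 in stress-low against control, each with an adjusted p of 1 in edgeR. Sox6, a transcription factor of Pvalb and Sst cells, was at 0.37 ± 0.14 in BLA in stress-high against stress-low and at -0.47 ± 0.20 in DG in stress-high against control. In DG, Cnr1, the cannabinoid receptor of Cck basket cells, was at 0.23 ± 0.09 in stress-low against control. Lamp5 and Sp8 were at -0.32 ± 0.12 and 0.86 ± 0.39 in DG in stress-high against stress-low. Of the 7 genes of GABA transport and breakdown, 1 had an unadjusted p under 0.05, Abat, the GABA transaminase, at -0.20 ± 0.09 in stress-low against control in DG, where 6.9% of all genes were at that level.

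The second question was whether the interneuron genes varied together or apart across animals, after the mean of each group was taken away from log2 CPM, counts scaled to library size. In BLA, Gad1 and Slc32a1 moved together. Animals 35 and 30 lay 0.46 and 0.37 above their group means for Gad1 and 0.44 and 0.61 above them for Slc32a1, and animal 22 lay lowest for both, at -0.25 and -0.55. The correlation over 12 libraries was r = 0.925 and rho = 0.790 (permutation p = 0.00011 and 0.00328), and r was 0.802 without animals 30 and 35. Permutation p-values of r and rho, here and below, are not adjusted for the number of pairs. In a limma fit with group means and Gad1 as a covariate, Slc32a1 rose by 1.27 ± 0.164 log2 units per log2 unit of Gad1 (adjusted p = 0.00356 over 15229 genes), and it was the only one of the 8 other members called, against a background of 0.735% of genes. Without stress-low animal 30 the slope was 1.01 ± 0.190 and the call was lost (adjusted p = 0.153), while without animal 35 it was 1.55 ± 0.211 (adjusted p = 0.0154).

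The isoenzyme Gad2 was not called with Gad1. Its correlation with Gad1 in BLA was r = 0.36, and its slope on Gad1 did not pass the test (0.458 ± 0.331, adjusted p = 0.799 in limma). Animal 35 held 228 TPM of Gad1, the second highest of the libraries used, beside 81.9 TPM of Gad2, the lowest. The slope of Gad2 was 1.44 without animal 35 (adjusted p = 0.065 in limma) and -0.275 without animal 30 (adjusted p = 1), so these animals decided it. Pvalb, Sst, Calb2 and Lhx6 had slopes on Gad1 below 0, from -0.301 to -0.983, and none passed (adjusted p 0.492 to 0.852 in limma). Lhx6 had r = -0.601 with Gad1 over all 12 libraries and 0.0208 without animals 30 and 35.

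Genes of striatal and central amygdala GABA neurons were often called with Gad1 in BLA. Of the 12 genes of that marker list that were tested, 8 were called with a positive slope, against 0.735% of all genes, and 12 of 12 had a positive r, with a median of 0.833. They included the striatal transcription factors Meis2 (slope 2.93 ± 0.284, adjusted p = 0.000802 in limma) and Foxp2, the signaling regulator Rgs9, the receptors Drd2 and Adora2a, the enkephalin precursor Penk, and Tshz1, a marker of intercalated cells. The 4 that were not called were Ppp1r1b, Drd1, Pde10a and Prkcd, the last a marker of the lateral central nucleus, with an r of 0.229. Meis2 was also among the 5 genes most alike Gad1, at r = 0.947, after Mpped2 (0.962), Ppm1b (0.962), Pbx3 (0.960) and Gnal (0.956), over 12 libraries. Among 30 other interneuron genes, 3 were called with Gad1, Dlx5, Erbb4 and Sp9, all with positive slopes, and of 5 dentate granule cell genes Calb1, a calcium buffer, was called with a negative slope (-0.852 ± 0.180).

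The summed level of the striatal and central amygdala list ran from 384 to 1070 TPM in BLA controls, from 349 to 1070 TPM in stress-low and from 497 to 646 TPM in stress-high, so the groups overlapped. Animals 30 and 35 both reached 1070 TPM. The library of animal 2, set apart, reached 1930 TPM beside the highest Gad1 (274 TPM) and Slc32a1 (123 TPM) of the region. Most of these sums was Penk, at 633, 645 and 1310 TPM in animals 30, 35 and 2. Animal 22 had the lowest sum, the lowest Gad1 (148 TPM) and the lowest Slc32a1 (46.0 TPM) among the libraries used. In DG the sum stayed between 219 and 283 TPM. The residual correlation of the sum with the members in BLA was taken on log2(TPM + 1) and not on log2 CPM. It was 0.882 for Gad1 and 0.899 for Slc32a1, 0.413 for Gad2, and -0.394, -0.197 and -0.680 for Pvalb, Sst and Vip. The oligodendrocyte sum also moved with Gad1 (r = 0.778 on the same scale), while none of the 5 oligodendrocyte genes were called. The range of that sum was 2190 to 3020 TPM in controls, 2570 to 4020 in stress-low and 2650 to 3100 in stress-high. Without animal 30 the number of list genes called with Gad1 was 2 of 12 and that of all genes was 5 (0.0325%), and without animal 35 the numbers were 2 of 12 and 25 (0.165%), with median r over the list of 0.752 and 0.703. Without animal 22 they were 4 of 12 and 44 (0.285%). On log2(TPM + 1) they were 5 of 12 and 96 (0.615%), and with control animal 2 kept in 10 of 12 and 409 (2.67%). The part of neighboring tissue in the punch in these levels was not tested.

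**Figure D3:**
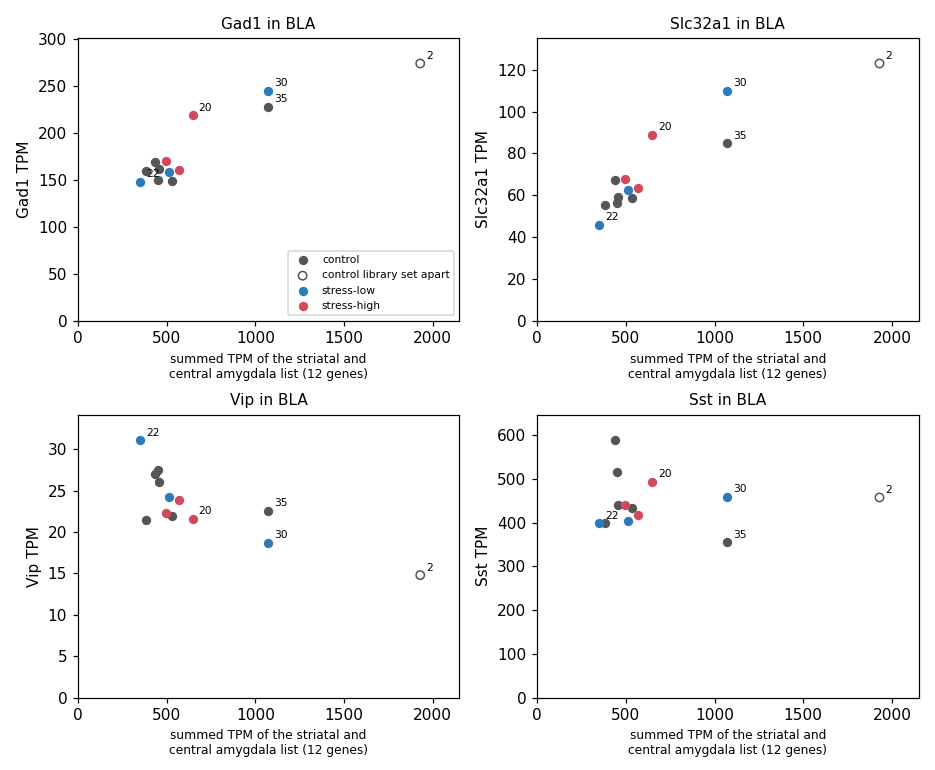
TPM of Gad1, Slc32a1, Vip and Sst in each BLA library against the summed TPM of 12 genes of striatal and central amygdala GABA neurons, with colors for the groups, an open circle for control animal 2 and animal numbers beside 5 libraries. Gad1 and Slc32a1 are high in animals 2, 30 and 35, where the sum is 1070 TPM or more, Vip is lowest in animals 2 and 30, and Sst shows no such order.

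Vip ran opposite to the pan-GABA genes in BLA. Vip was highest in animal 22, at 31.1 TPM, and lowest in animal 30, at 18.7 TPM, the reverse of the order of these animals for Gad1, Gad2 and Slc32a1. The residual correlation of Vip was -0.849 with Gad2, -0.843 with Reln, -0.823 with Slc32a1 and -0.702 with Gad1 over 12 libraries (permutation p = 0.00085, 0.00041, 0.00187 and 0.011). The rank correlations were -0.713, -0.790, -0.622 and -0.636 (permutation p = 0.0114, 0.00308, 0.0353 and 0.03). The 2 libraries farthest from the median of 1 gene of each pair were also left out. Without animals 22 and 30, the farthest in Gad2 and in Vip, r was -0.536 for Gad2 and -0.764 for Reln. Without animals 30 and 35, the farthest in Slc32a1 and in Gad1, r was -0.755 for Slc32a1 and -0.667 for Gad1. Animal 22, with the highest Vip, stayed in for these last values. With Vip as the covariate, 2 of the 8 other members were called, Gad2 (slope -1.08 ± 0.197, adjusted p = 0.0419 in limma) and Reln (-0.911 ± 0.178, adjusted p = 0.0492), against a background of 0.374% of genes. Slc32a1 lay just outside (-1.12 ± 0.224, adjusted p = 0.0505). These calls depended on single animals: without animal 22 or without animal 30, 0 genes were called with Vip, and the slope of Gad2 was -0.919 and -0.795. Without animal 17, 19 or 34, no member was called, and without animal 14, 20, 28 or 32, 1 member was. Without animal 35, 3 members were called. With control animal 2 kept in, Gad1, Gad2 and Slc32a1 were called (adjusted p = 0.0174, 0.00313 and 0.00401 in limma) among 686 genes, while Reln was not (slope -0.412, adjusted p = 0.161). On log2(TPM + 1), neither Gad2 nor Reln was called (adjusted p = 0.321 and 0.761 in limma), and 1 gene was called in all. The summed levels of oligodendrocyte and dentate granule cell genes had r = -0.741 and 0.854 with Vip in BLA, on log2(TPM + 1). Their part in these values was not tested. The granule cell sum was mostly Calb1, at a mean of 138 TPM, while Prox1 and C1ql2 were at 2.48 and 2.66 TPM (n = 9). Over 5 granule cell genes the median r with Vip was -0.109, with 2 of 5 positive. Meis2 and Tshz1 were the 2 of 12 striatal and central amygdala genes called with Vip, both with negative slopes, and the genes most alike Vip were Spon1, Ddt, Palmd, Onecut1 and Mapk3, at r = 0.966 to 0.921.

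No gene was called with Pvalb or Sst, the markers of the other 2 large classes, in BLA. With either as the covariate 0 of 8 members and 0% of all 15229 genes were called. Sst was highest in animal 27, at 589 TPM, where Lhx6 also peaked, at 10.4 TPM against 3.47 to 6.30 TPM in the other libraries used. The correlation of Sst and Lhx6 was r = 0.658 but rho = 0.322 (permutation p = 0.0295 and 0.31), and without animals 27 and 35 it was -0.280, so it rested on those animals. Sst and Calb2 behaved alike, with r = 0.606 and 0.265 without the same 2 animals. Reln and Gad2 rose and fell together, at r = 0.734 and rho = 0.685 (permutation p = 0.00562 and 0.0168), and 0.530 without animals 22 and 30.

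In DG, Reln and Gad2 had the highest correlation, r = 0.876 and rho = 0.927 over 11 libraries (permutation p = 0.00051 and 9e-05), and 0.769 without animals 2 and 17. Pvalb went with Gad1 (r = 0.794, permutation p = 0.00343) and with Slc32a1 (r = 0.773, permutation p = 0.00535), and rho was 0.736 and 0.636 (permutation p = 0.0129 and 0.0401). Without the 2 libraries farthest out in Gad1 (animals 17 and 28), r of Pvalb with Gad1 was 0.737. Without those farthest out in Slc32a1 (animals 19 and 28), r of Pvalb with Slc32a1 was 0.462. Gad1 and Slc32a1 had r = 0.682 and rho = 0.518 (permutation p = 0.0209 and 0.108). No gene of 14079 passed in DG with Gad1, Pvalb, Sst or Vip as the covariate (0% of genes, 0 of 8 members each). With the library of animal 35 kept in, Slc32a1 (r = 0.87) and Gad2 (r = -0.709) were called with Pvalb, in opposite directions, among 2237 genes. Without that library the r of Gad2 with Pvalb was 0.301.

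Of the 36 pairs of members compared in each region, 18 had a positive r in BLA and 21 in DG, and 17 had the same sign in both. In each region 4 of 36 pairs (11.1%) reached the 95th percentile of r over all gene pairs, a level that 5% of gene pairs reach, which was 0.596 in BLA and 0.637 in DG. Negative pairs, such as those of Vip in BLA, are not in that count. The median r of member pairs was -0.0219 in BLA and 0.123 in DG. In 9 animals with both regions, a member's residual in BLA gave little hold on that in DG, with r from -0.495 for Sst to 0.502 for Lhx6, as a description only.

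**Figure D4:**
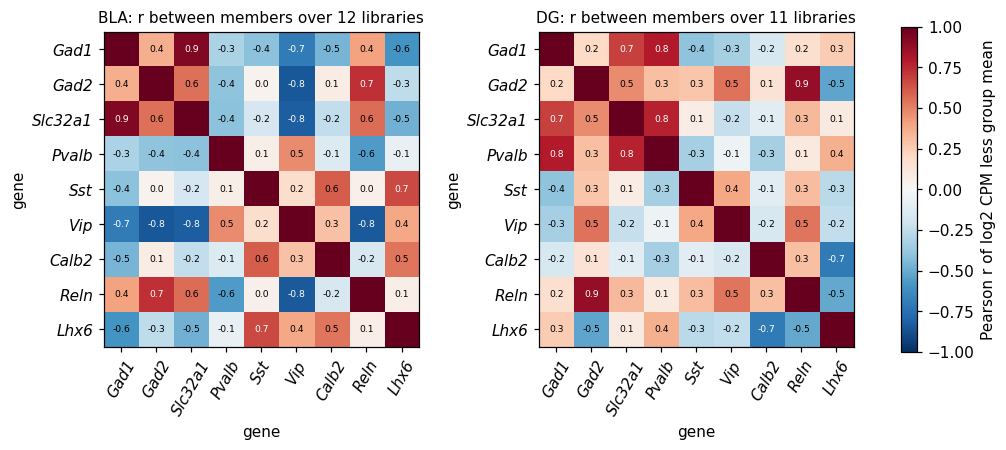
Pearson r between members over 12 BLA (left) and 11 DG (right) libraries, from log2 CPM less the group mean, on a scale from -1 (blue) to 1 (red). Gad1 and Slc32a1 form the strongest BLA pair (0.925) and Vip the lowest values (-0.849 with Gad2), while in DG Gad2 with Reln (0.876) and Gad1 with Pvalb (0.794) lead.

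Members also differed in how far they varied. In BLA the residual SD of log2 CPM was highest for Calb2, at 0.448, above 89.0% of all genes, followed by Lhx6 (0.391), Slc32a1 (0.327) and Gad2 (0.304), and, on this scale, lowest for Sst, at 0.175, beside a median of 0.159 over all genes. In DG, Calb2 and Slc32a1 were among the steadier genes, with SDs of 0.0937 and 0.0823 beside a median of 0.147, and Sst varied most, at 0.284. Calb2 had the widest spread of the members in BLA on log2 CPM, on log2(TPM + 1) and with every library. The place of Sst depended on the setting: on log2(TPM + 1) its BLA value (0.210) was level with those of Pvalb (0.207) and Vip (0.205), and with every library Gad2, Vip and Lhx6 had higher DG values than Sst. Calb2 in BLA went from 66.7 TPM in animal 35 to 162 TPM in animal 7. The DG value of Gad2 was 0.157 without the library of animal 35 and 0.557 with it.

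The third comparison set BLA against DG in the 9 animals with both libraries in use. Calb2 and Vip carried the main difference. Calb2 was at 123 ± 30.6 TPM in BLA and 10.2 ± 0.600 TPM in DG (SD, n = 9), 13.3-fold higher in BLA, with log2 ratios of TPM between 3.02 and 3.93 in single animals. Vip was at 24.5 ± 3.25 TPM and 4.48 ± 0.601 TPM, 6.12-fold higher in BLA, and was higher there in 9 of 9 animals. Both passed edgeR's quasi-likelihood test with the animal as a block and effective lengths as offsets (adjusted p = 3.56e-15 and 8.91e-13 over 14361 genes).

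The remaining members differed by less than 1.5-fold in this fit. Without the effective-length offset the log2 difference was 1.13 ± 0.08 for Sst, in place of 0.55 ± 0.09, and -0.71 ± 0.09 for Reln, in place of -0.53 ± 0.09, and DESeq2, run without that offset, gave 1.13 and -0.72, so the size of these 2 differences depended on it. With the offset Sst was 1.46-fold higher in BLA, in 9 of 9 animals, and Gad1 1.37-fold, in 8 of 9. Lhx6, Gad2 and Slc32a1 were 1.24-fold, 1.22-fold and 1.19-fold higher (adjusted p = 0.00957, 0.00376 and 0.00311 in edgeR). Reln was the only member called higher in DG, 1.45-fold, and lower in BLA in 9 of 9 animals. Pvalb did not pass, with a log2 difference of -0.10 ± 0.07 (adjusted p = 0.233 in edgeR). In all, 7 of 9 members were called higher in BLA and 1 of 9 higher in DG, where 40.3% and 38.3% of all genes were called, so being called is itself common between these regions. The smaller differences turned on the scale: in a limma fit of log2(TPM + 1), which moved the median of all genes from 0.022 to -0.119, Gad2, Slc32a1 and Lhx6 were no longer called (log2 differences 0.10, 0.07 and 0.11) and Pvalb was called higher in DG (-0.27, adjusted p = 0.00134). Effective lengths lay 50 bases below transcript length in BLA and 261 to 274 bases below it in DG, so the region tables differed in how effective length was set, and region and this processing cannot be told apart.

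**Figure D5:**
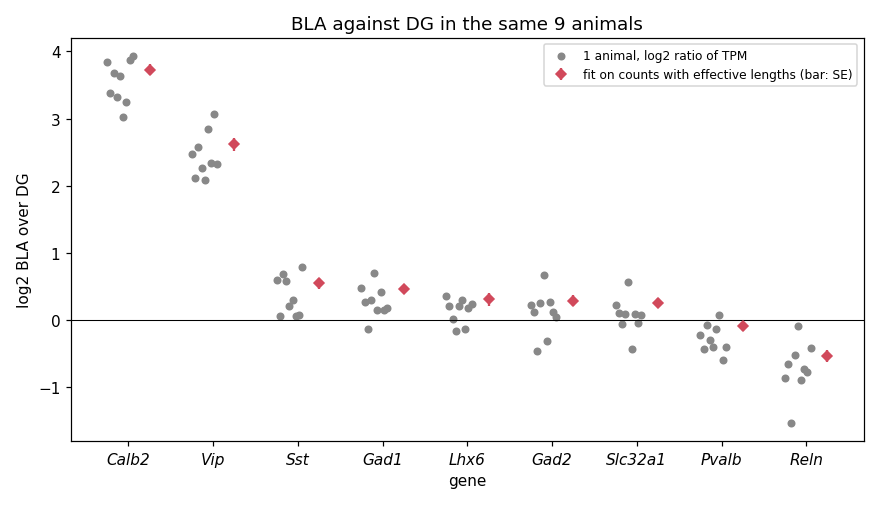
Log2 ratio of BLA over DG for each member, with a gray point for the TPM ratio in each of 9 animals and a red diamond for the edgeR estimate with its SE. Calb2 and Vip lie above 2 in every animal, Sst between 0.06 and 0.79, the pan-GABA genes between -0.46 and 0.70, and Reln below 0 in every animal.

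Among the other interneuron genes, 18 of 29 were called higher in BLA and 5 higher in DG. Of all genes, 40.3% and 38.3% were called in these directions. Npy, the neuropeptide of many hilar interneurons, was 20.8-fold higher in DG, at 304 ± 53.7 TPM against 12.7 ± 6.06 TPM (SD, n = 9). Nr2f2, a transcription factor of caudally derived interneurons, was 19.0-fold higher in BLA, at 123 ± 19.6 TPM against 7.21 ± 0.690 TPM. Its BLA level was near that of the pan-GABA gene Gad2 (113 ± 22.8 TPM). Which cells of the punches made Nr2f2 was not tested. Syt2, a synaptotagmin of Pvalb terminals, was 7.48-fold higher in BLA, and Cck, also made by excitatory neurons, 3.87-fold. Nxph1, a secreted ligand of neurexins, was 2.6-fold higher in BLA. Of the 7 genes of GABA transport and breakdown, 5 were called higher in BLA and 1 in DG (40.3% and 38.3% of all genes). Among them Abat was 1.35-fold higher in BLA, Slc38a1, a glutamine transporter, 1.32-fold, and Glul, glutamine synthetase, 1.31-fold, while Aldh5a1, the next enzyme after Abat in GABA breakdown, was 1.14-fold higher in DG.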

How the data were processed

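RNA was poly-A selected, and the authors aligned reads to the Rn5 rat assembly with STAR (2.6.0a) and quantified genes with RSEM (1.3.1). The deposited tables hold RSEM expected counts and TPM values for each gene and library, together with transcript length and effective length. Expected counts were rounded to whole numbers for testing. TPM values were used as deposited for levels, and on a log2 scale with a pseudocount of 1. Genes passed filterByExpr with a minimum count of 10, were scaled with TMM and were fitted in 1 model of 3 group means per region in edgeR (4.0.16, R 4.3.3). The study used EBSeq, in place of which edgeR stands here, with DESeq2 (1.42.0) and limma (3.58.1) as alternatives. In each region the control library farthest from the median on the first principal component was left out. Covariation was tested in limma on log2 CPM (prior count 2) with Gad1, Pvalb, Sst or Vip as covariate beside group. Permutation tests of r and rho were two-sided with 100000 permutations, and 36 pairs were computed per region, without adjustment for their number. Residuals were shuffled over all libraries of a region and not within groups. With group means removed they are not freely exchangeable, so these p-values may be too small.

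The members and gene lists were chosen with earlier results of these data known. Text names the members, up to 3 genes of each list with the smallest unadjusted p under 0.05 (5 where adjusted), and, where anything was called, the 5 genes most alike each covariate. Interneuron and striatal list genes called with a covariate are named beyond 5 by a choice made after their values were seen, and some items are not reported here. Gad1 and Slc32a1 were chosen for their promoters after their values were seen. The count fits, the covariate fit and the region fit were run on simulated data as a check of the fits. The simulated Gad1 covariate carried little noise of its own and had fixed slopes, and the simulated regions gave every gene the same spread. These settings differ from the data, so the simulations do not bear on calls that rest on single animals. Libraries of 1 group are separate animals, so p-values measure the spread between these animals. Depth, from 11656439 to 22801247 counts, limits Lhx6 and DG Vip most. Replicate numbers in the titles did not pair the libraries of different groups: same-numbered libraries correlated at -0.126 to 0.0725 in BLA and -0.185 to 0.111 in DG. Alternatives were every library, other scalings, filters, units and pseudocounts, only the groups compared, blocks and each library left out. For BLA against DG, libraries were paired by animal. Promoters came from RefSeq on GRCr8, another assembly than that of the tables, matched by symbol for 9 members.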

Additional observations from a re-analysis of the deposited data

Results flagged for a closer look

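Values of 9 members were examined in the 2 control groups, of 7 BLA and 6 DG libraries with every library kept, and 3 of 18 sets held a library far from the rest by Dixon's ratio, where chance flags about 1 in 20. Gad2 in BLA was 187 TPM in control animal 2, above 81.9 to 116 TPM in the other controls. Lhx6 in BLA was 10.4 TPM in control animal 27, above 3.47 to 5.39 TPM in the others. Gad2 in DG was 24.4 TPM in control animal 35, below 83.9 to 116 TPM in the others, and Reln (10.1 TPM) and Lhx6 (2.54 TPM) were lowest of the DG libraries in that animal as well. In BLA the same animal had the lowest Gad2 and Lhx6. The libraries of animals 2 in BLA and 35 in DG are those left out of the comparisons. The study reports that its excluded hippocampal control sample had low RNA quality and was re-extracted. It proposes damaged RNA or contamination as the reason that sample stood apart, and does not give the animal number. RNA quality and a trait of animal 35 cannot be told apart in the DG values.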

How the results depend on the processing

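In 109 alternatives of the group comparisons 0 members were called, and the lowest adjusted p of a member was 0.401. The 981 log2 fold changes moved in 40 cases by more than the spread and gained no call. Gad2 in BLA in stress-high against control had log2 fold changes of 0.29 to 0.47 over 20 alternatives, with an unadjusted p under 0.05 in 7. With every library kept, the members called were 2 with Gad1 and 3 with Vip in BLA (Gad1 and Slc32a1 gained, Reln lost), 2 with Pvalb in DG, and 2 higher in DG than in BLA (Pvalb added), and the SD was 0.348 for Vip in BLA and 0.557, 0.244, 0.152, 0.271 and 0.288 for Gad2, Pvalb, Calb2, Reln and Lhx6 in DG. On log2(TPM + 1), 0 members were called with Vip in BLA, and between regions 4 were higher in BLA and 2 in DG. With 1 library left out, the members called were 0 to 1 with Gad1 and 0 to 3 with Vip in BLA, and between regions 7 to 7 were higher in BLA and 1 to 2 in DG, 2 only without animal 28. The replicate numbers did not pair the libraries, and with them as a block 0 members were called with Gad1 (Slc32a1 adjusted p = 0.0717 in limma) and 1 with Vip in BLA, and 1 of 12 striatal and central amygdala genes, of 12 genes in all, with Gad1. Without the animal pairing, 6 members were higher in BLA, Lhx6 having an adjusted p of 0.0528 in edgeR. Without the effective-length offset the log2 difference of Sst between regions was 1.13. The cause of these shifts was not tested. Depth limits Lhx6 and DG Vip, and 3 animals per stress group limit every group comparison.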
